A study of Mus musculus with 3 samples.

Results

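The genes described here encode the nuclear part of the mitochondrial respiratory chain and of ATP synthase, and their levels were compared between 3 sorted myeloid cell populations of the mouse colon. Members were taken by symbol alone: every symbol in the deposited expression tables that begins with Nduf, Uqcr or Atp5, the symbols Sdha, Sdhb, Sdhc and Sdhd, and every symbol that begins with Cox followed by a digit from 4 to 8. The rule found 92 of 24346 gene symbols. It uses no expression value, but it was set with earlier results of these data known. By complex, 45 members belonged to complex I, 4 to complex II, 8 to complex III, 18 to complex IV and 17 to complex V. The rule also takes in proteins that are not subunits, namely 7 complex I assembly factors (Ndufaf genes), Atp5s, Atp5sl and Cox7a2l, which are given by name below. The 13 subunits encoded by mitochondrial DNA are not analysed here.

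The respiratory chain sits in the inner mitochondrial membrane. Complex I (NADH dehydrogenase) and complex II (succinate dehydrogenase) pass electrons from NADH and succinate to ubiquinone, complex III (the cytochrome bc1 complex) passes them on to cytochrome c, and complex IV (cytochrome c oxidase) hands them to oxygen. Complexes I, III and IV pump protons as they do so, and complex V (ATP synthase) uses the returning protons to make ATP. Mature neutrophils are known to have few mitochondria and to rely largely on glycolysis, whereas resident macrophages and dendritic cells keep an active oxidative metabolism.

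RNA was measured in colonic myeloid cells of BALB/c mice, an inbred albino strain, described as healthy, with 1 library for each of 3 populations. CD64- dendritic cells (DC) and CD64+ macrophages were told apart by the high-affinity Fc gamma receptor, and the third population, positive for Gr-1 and CD11b, is named in the labels as neutrophil and monocyte. No treatment or genetic change is named for any of the 3, and the age, sex and number of mice, and whether cells of several mice were pooled, are not given in the sources used here. Values are FPKM, fragments scaled to transcript length and to the mapped fragments of the library, so that levels can be compared between genes of a library, while a comparison between libraries rests on their scaling. With 1 library per population there was no replicate error and no test could be made; differences are given as log2(FPKM + 1) differences, which understate the change of low genes, and a gene was counted only where it passed a fixed rule of size. The larger rule asks for a difference of at least 2 on that scale (4-fold) and the smaller for at least 1 (2-fold), each with at least 10 FPKM in the higher library.

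By summed FPKM the 3 libraries carried the markers of their labels, with additions, apart from the monocyte markers. Those (6 genes) summed to 1511 FPKM in the Gr-1+ CD11b+ cells, 2933 in the macrophages and 1642 in the DC. They were thus lowest in the library labelled neutrophil and monocyte. Neutrophil markers (11 genes) summed to 177807 FPKM in the Gr-1+ CD11b+ cells, 4675 in the macrophages and 1781 in the DC, and Camp, a granule gene, was at 0 in the other two. Macrophage markers (11 genes) summed to 29227 FPKM in the macrophages, 3485 in the DC and 2844 in the Gr-1+ CD11b+ cells, and DC markers (10 genes) to 1353 in the DC, 481 in the macrophages and 175 in the Gr-1+ CD11b+ cells. The highest DC marker in each library was at 1004 FPKM in the DC, 195 in the macrophages and 98.9 in the Gr-1+ CD11b+ cells. The DC sum thus rests largely on 1 gene. Markers of B and plasma cells (8 genes) summed to 22684 FPKM in the DC library against 1164 and 431 in the macrophages and Gr-1+ CD11b+ cells, and markers of colon epithelium (10 genes) to 777, 484 and 1631 in the DC, macrophages and Gr-1+ CD11b+ cells. Their part in the results below was not tested. The Gr-1+ CD11b+ library was the shallowest: the worth of 1 fragment on 1 kb of transcript was 0.451 FPKM, against 0.125 in the DC and 0.166 in the macrophages. Genes that these cells should not express, 1445 olfactory and vomeronasal receptor genes, had a 95th percentile of 9.67 FPKM in the Gr-1+ CD11b+ cells, 3.23 in the macrophages and 0.61 in the DC, and values below these are not read as expression.

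Promoters of respiratory chain genes are known to bind the nuclear respiratory factors NRF1 and GABPA (an ETS factor) and YY1. The RefSeq promoter table (build GRCm38.p6) held 76 of the 92 members. In the 250 bases before the start, on either strand, the NRF1 motif (GCGCA, any base, then GCGC) stood in 14 of the 76 members (18.4%), against 4.23% of 27025 genes and 9.74% of the 4303 genes with a mean of at least 10 FPKM here. The ETS letters CCGGAAG stood in 13 members (17.1%), against 7.83% of all genes and 17.3% of those with a mean of at least 10 FPKM. The YY1 letters AAGATGGCG stood in 2 members, which is 2.63%, against 0.710% of all genes and 1.77% of those with a mean of at least 10 FPKM. Matches of different motifs overlapped in 0 of the 82 windows of members, and a match is a description of the sequence only. Members with an NRF1 match (14) and those without (61 with a tested value) had median differences of -1.23 and -1.15 between the Gr-1+ CD11b+ cells and the DC, and of -1.12 and -1.19 between the Gr-1+ CD11b+ cells and the macrophages, so that the order turned. With an ETS match (13) and without (62), the medians were -0.92 and -1.22 against the DC and -0.87 and -1.21 against the macrophages.

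The promoters of 5 members are given 5′ to 3′ on the gene's strand, with motif matches in capitals and the rest in lower case. Each is the stretch of the window that lies in no annotated exon of GENCODE M21. Cox6a1 (chr5:115348982-115349129, minus strand), the main Cox6a isoform in all 3 libraries, is shown for its 2 NRF1 matches. It passed no size rule in any comparison, and 1 ETS match of Cox6a1 lies outside the printed stretch. Atp5l (chr9:44920752-44920992, minus strand), the ATP synthase gene that differed least between Gr-1+ CD11b+ cells and DC, is shown for its ETS match. Cox8a (chr19:7217617-7217866, minus strand) had the same level in the DC and the Gr-1+ CD11b+ cells, while Ndufc2 (chr7:97399753-97400002, plus strand) and Ndufa4 (chr6:11907498-11907700, minus strand) were among the members furthest below, and none of these 3 stretches holds any of the 3 motifs.
Cox6a1: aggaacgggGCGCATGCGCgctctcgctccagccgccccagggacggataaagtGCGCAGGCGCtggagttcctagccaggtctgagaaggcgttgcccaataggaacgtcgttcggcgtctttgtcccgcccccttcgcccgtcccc
Atp5l: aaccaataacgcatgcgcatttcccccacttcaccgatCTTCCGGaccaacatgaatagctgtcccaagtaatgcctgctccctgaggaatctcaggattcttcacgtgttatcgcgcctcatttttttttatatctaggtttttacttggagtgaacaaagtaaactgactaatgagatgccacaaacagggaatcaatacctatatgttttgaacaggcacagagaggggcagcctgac
Cox8a: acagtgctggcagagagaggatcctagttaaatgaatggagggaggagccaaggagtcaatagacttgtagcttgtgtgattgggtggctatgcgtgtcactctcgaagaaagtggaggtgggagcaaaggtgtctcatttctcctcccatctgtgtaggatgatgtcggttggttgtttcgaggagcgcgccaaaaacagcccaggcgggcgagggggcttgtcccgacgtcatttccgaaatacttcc
Ndufc2: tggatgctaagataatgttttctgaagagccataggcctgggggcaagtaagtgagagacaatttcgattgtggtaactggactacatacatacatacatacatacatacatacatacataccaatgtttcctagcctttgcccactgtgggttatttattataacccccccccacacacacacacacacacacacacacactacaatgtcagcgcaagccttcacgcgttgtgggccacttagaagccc
Ndufa4: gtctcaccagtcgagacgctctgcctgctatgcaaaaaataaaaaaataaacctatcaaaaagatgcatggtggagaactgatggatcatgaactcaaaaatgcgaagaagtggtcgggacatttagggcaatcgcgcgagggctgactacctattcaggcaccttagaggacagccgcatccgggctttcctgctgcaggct

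The module was expressed in all 3 populations, with Cox4i1 among the 3 highest members in each. Of the 92 members, 81 reached 10 FPKM in the DC, 80 in the macrophages and 77 in the Gr-1+ CD11b+ cells. Cox8b, the muscle isoform of subunit 8, was listed at 0 in all 3 libraries. Ndufa4l2 (0.294 FPKM in the DC, 0 in both others) and Cox4i2 (0.852 FPKM in the macrophages, 0 in both others) also stayed under 1 FPKM, which left 89 members among the 17329 genes compared. The highest members in the DC were Ndufa1 at 881 FPKM, Atp5b at 777 and Cox4i1 at 732. In the macrophages Cox8a (910 FPKM), Cox6b1 (908) and Cox4i1 (887) led, and in the Gr-1+ CD11b+ cells Cox8a (628), Cox6b1 (467) and Cox4i1 (436). The order of the 76 subunits with at least 10 FPKM in any library was nearly the same in each pair of libraries, with a Pearson correlation of log2(FPKM + 1) of 0.97 between DC and macrophages, 0.94 between DC and Gr-1+ CD11b+ cells and 0.96 between macrophages and Gr-1+ CD11b+ cells. These correlations are across genes that share each library and its annotation, and are given as a description.

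**Figure D1:**
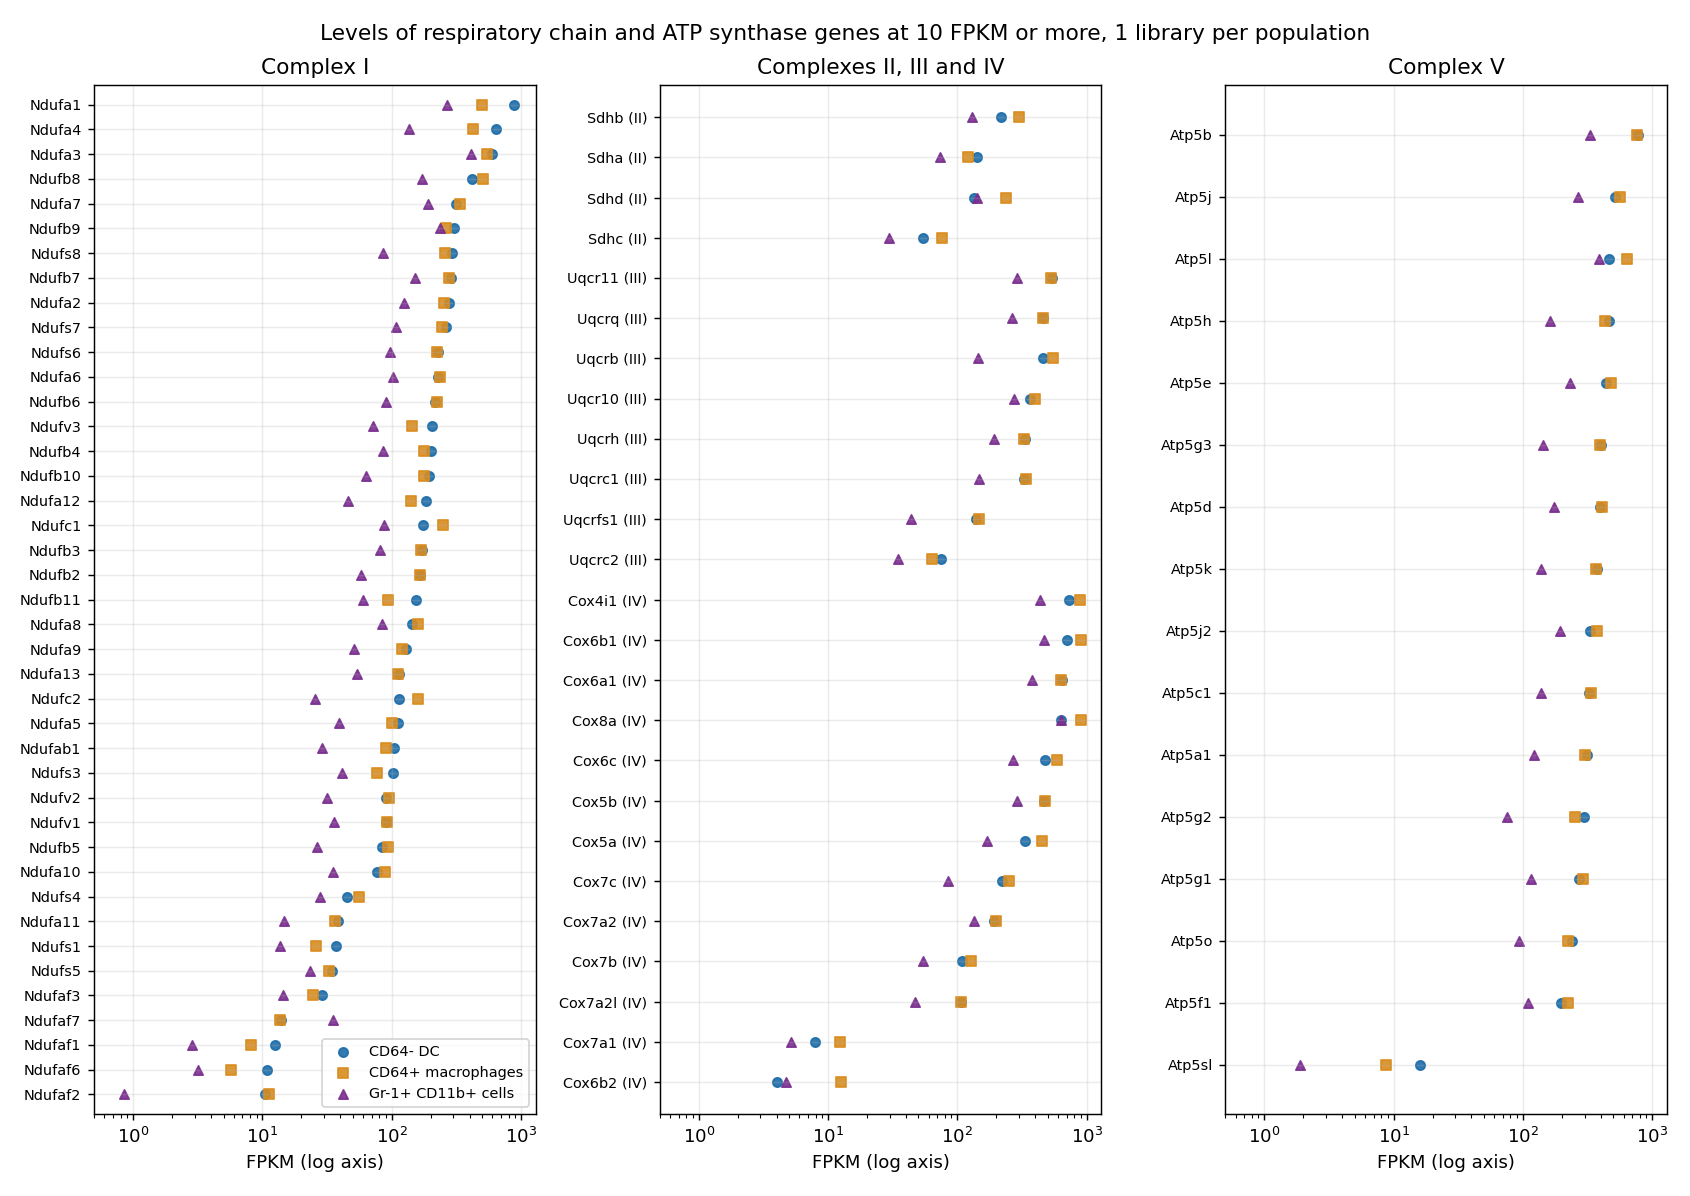
Level in FPKM (log axis) of 82 of the 83 members with at least 10 FPKM in any library, by complex, with 1 point per library (circles, CD64- DC; squares, CD64+ macrophages; triangles, Gr-1+ CD11b+ cells). DC and macrophage points lie close together for most genes, and the triangle lies furthest left for nearly all, with Sdhd, Cox6b2 and Ndufaf7 as the exceptions.

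DC and macrophages had closely similar levels of the module. The median difference, DC minus macrophages, was 0.02 over the 89 members and -0.05 over all 17329 genes compared. No member passed the 4-fold rule (background 3.85% of all genes, 1.53% higher and 2.31% lower). By the 2-fold rule (background 11.3%, 5.59% higher and 5.69% lower) 1 member passed: Cox6b2, the testis isoform of subunit 6b, at 4.05 FPKM in the DC and 12.6 in the macrophages. Among the 76 subunits with at least 10 FPKM in any library, 38 were higher and 38 lower in the DC. Their differences had an SD of 0.33, and 68 of the 76 lay within 0.5 of the median. When the libraries were rescaled so that all had the same FPKM sum, the median moved to 0.41, with 66 of the 76 higher in the DC, and under median-ratio factors it moved to -0.18, with 64 of the 76 lower, so that no direction can be given.

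The module was lower in the Gr-1+ CD11b+ cells than in both other populations on the deposited scale. Against the DC the median difference was -1.15 over the 89 members, 74 of the 76 subunits were lower, and 50 members passed the 2-fold rule as lower and 1 as higher (background 24.6% in either direction, 18.6% lower and 6.03% higher). Against the macrophages the median was -1.12, all 76 subunits were lower, and 52 members passed as lower and 1 as higher (background 19.8% in either direction, 15.1% lower and 4.72% higher). The lower calls made up 56.2% and 58.4% of the 89 members. Most of the 17329 genes are low, and of the 5639 genes with a mean of at least 10 FPKM, 45.4% were lower than in the DC and 41.9% lower than in the macrophages by the same rule. By the 4-fold rule 4 members were lower than in the DC and 0 higher (background 9.93%, 6.28% lower and 3.65% higher) and 2 lower than in the macrophages and 0 higher (background 4.82%, 3.41% lower and 1.41% higher), shares no larger than the background. The 2 comparisons share the Gr-1+ CD11b+ library and are not independent of each other. In bulk RNA, fewer cells with a high level and less RNA per cell cannot be told apart.

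Part of this difference was shared with other well-expressed genes, and its size rests on the scaling and on the genes set beside it. The genes with a mean of at least 10 FPKM had median differences of -0.87 against the DC and -0.81 against the macrophages, while the median over all genes compared was 0.01 and 0.10. Their median level in the DC was 32.6 FPKM, beside 198 for the members. The 1047 genes with a mean of at least 100 FPKM were nearer in level, at 189 FPKM in the DC. These 1047 had median differences of -0.41 against the DC and -0.81 against the macrophages, and 0.34 and -0.23 with median-ratio factors. The share of all FPKM taken by the top 10 genes was 33.5% for the Gr-1+ CD11b+ cells, 22.2% for the macrophages and 15.0% for the DC. The members held 1.25% of the sum in the Gr-1+ CD11b+ cells, 2.55% in the macrophages and 3.24% in the DC, and 1.88%, 3.27% and 3.81% of the sum without those 10 genes. With median-ratio factors the median of all genes moved to 0.63 against the DC and 0.53 against the macrophages, the members' medians moved to -0.38 and -0.55, and 59 and 70 of the 76 subunits were lower. Then 7 members (7.87%) passed the 2-fold rule as lower than in the DC, where 8.41% of all genes and 21.5% of those with a mean of at least 10 FPKM did. Against the macrophages 10 members (11.2%) did, beside 7.32% of all genes and 20.1% of those with a mean of at least 10 FPKM. The 7 were Ndufa4, Ndufc2, Ndufa12, Ndufab1, Ndufaf1, Atp5g2 and Atp5sl. Under the 3 other scalings tried, the members' median minus that of all genes lay between -1.24 and -1.01 against the DC and between -1.21 and -1.08 against the macrophages. Set against the genes with a mean of at least 10 FPKM the gap was smaller, -0.27 against the DC and -0.31 against the macrophages as deposited, and between -0.28 and -0.25 and between -0.30 and -0.29 under those scalings.

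**Figure D2:**
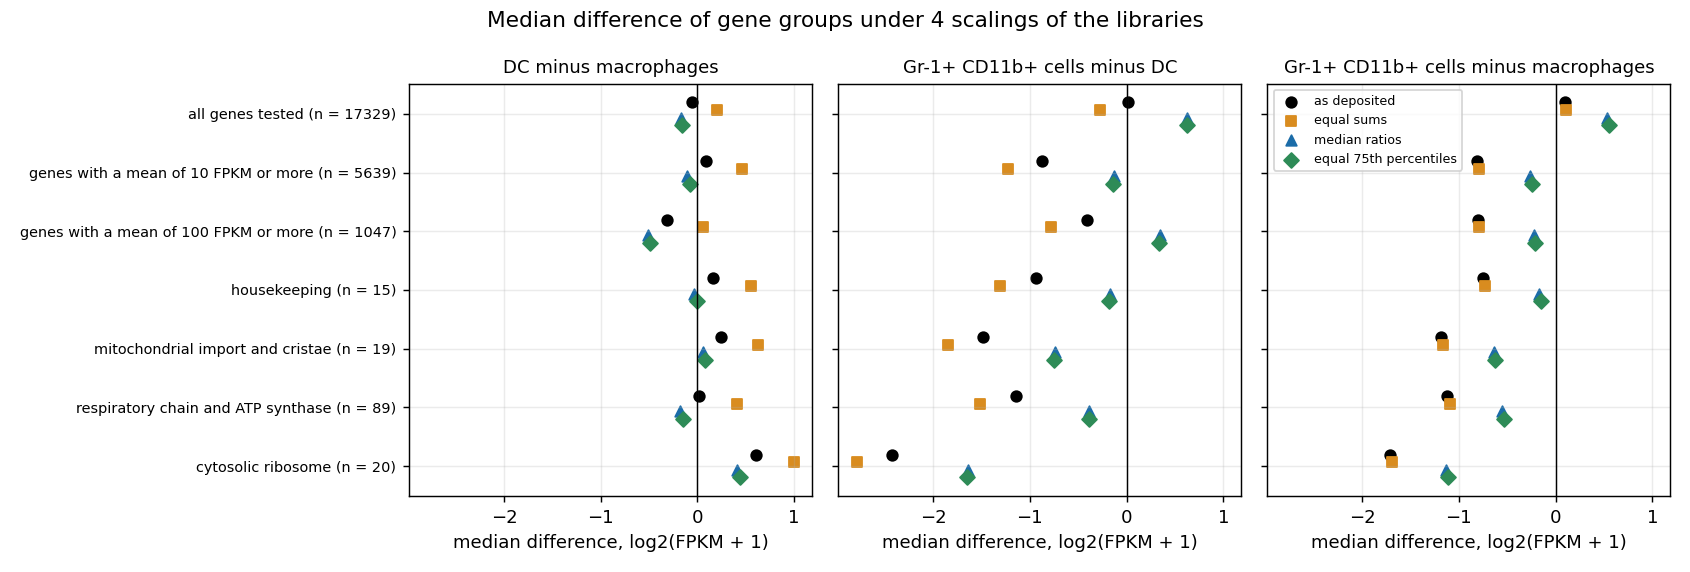
Median log2(FPKM + 1) difference of 7 gene groups in the 3 comparisons, as deposited (circles) and after scaling to equal sums (squares), by median ratios (triangles) or to equal 75th percentiles (diamonds). In both comparisons of the Gr-1+ CD11b+ cells the respiratory chain group lies left of all genes tested under each scaling, and by less left of the genes with a mean of at least 10 FPKM, and the cytosolic ribosome group lies further left still.

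Within the module the complexes did not move by the same amount. Against the DC the median difference of the Gr-1+ CD11b+ cells was -1.28 in complex I (44 genes), -0.79 in complex II (4), -0.99 in complex III (8), -0.72 in complex IV (16) and -1.23 in complex V (17). Against the macrophages the 5 medians were closer, at -1.15, -0.97, -0.86, -0.99 and -1.26. The direction of 1 of these medians turned with the scaling. Against the DC complex IV moved to 0.059 with median-ratio factors and to 0.049 at equal 75th percentiles, and complex II to -0.024 and -0.034, while complexes I, III and V kept -0.51, -0.22 and -0.45 with median-ratio factors. Shares of the module's FPKM sum do not depend on the scaling of a library. Complex I took 36.6% of the members' FPKM in the DC, 32.0% in the macrophages and 31.2% in the Gr-1+ CD11b+ cells. Complex IV ran the other way, with 21.4%, 25% and 27.6%. Ndufa4 is counted with complex I here by its symbol, though it is now known as a component of complex IV. Without Ndufa1 and Ndufa4, 2 of the highest genes grouped with complex I, the share of complex I was 31.8%, 29.0% and 28.5%. That of complex IV was then 23.1%, 26.1% and 28.6%. Complex II held 2.54%, 3.30% and 3.48%, complex III 12.5%, 12.6% and 12.9%, and complex V 26.9%, 27.2% and 24.9%.

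**Figure D3:**
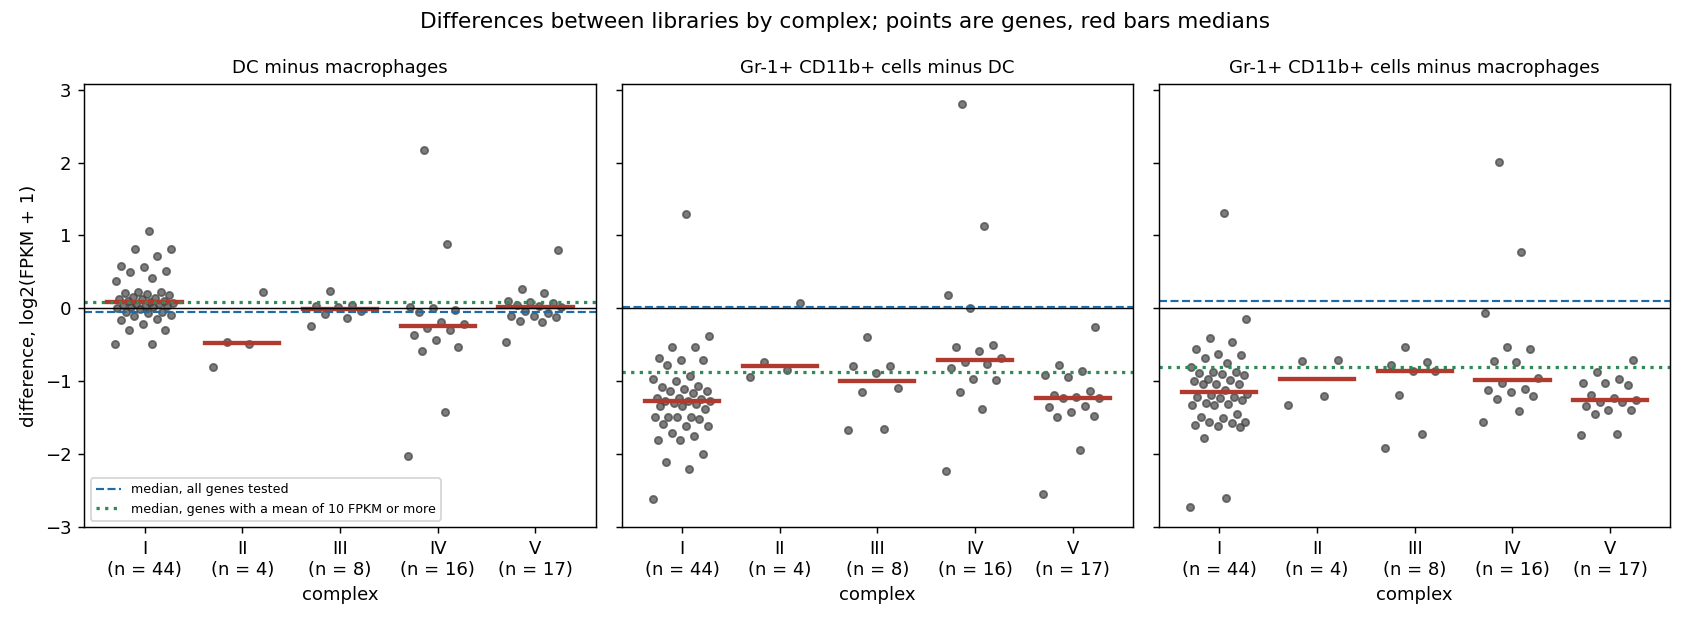
Log2(FPKM + 1) difference of each tested member (points) by complex, with the complex median (red bar), the median of all 17329 genes compared (dashed) and that of the 5639 genes with a mean of at least 10 FPKM (dotted). DC and macrophages differ by a median near 0, and in both comparisons of the Gr-1+ CD11b+ cells most points of every complex lie below 0.

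Of the 44 tested complex I members, 33 (75%) passed the 2-fold rule as lower in the Gr-1+ CD11b+ cells than in the DC (18.6% of all genes, and 45.4% of those with a mean of at least 10 FPKM). Against the macrophages 26 (59.1%) did, beside 15.1% and 41.9%, which is a smaller share than the 76.5% of complex V. With median-ratio factors 5 and 7 of the 44 passed as lower, beside 8.41% and 7.32% of all genes. Its 7 core subunits, which include those that carry the flavin and the iron-sulphur clusters, had a median of -1.31 against the DC, with all 7 past the rule, and -1.18 against the macrophages, with 5 of 7 past it. With median-ratio factors these medians were -0.54 and -0.60, with 0 of the 7 past the rule against the DC and 1, Ndufs8, just past it against the macrophages, and at equal 75th percentiles 0 passed in either. The 29 accessory subunits had medians of -1.24 and -1.20. By position, the NADH-binding N module (8 genes) had a median of -1.34 against the DC, the quinone-binding Q module (8) -1.28 and the membrane P module (20) -1.24. Against the macrophages the order differed, at -1.10, -1.20 and -1.15. Ndufs8, a core iron-sulphur subunit of the Q module, had 294 FPKM in the DC, 258 in the macrophages and 85.8 in the Gr-1+ CD11b+ cells. Ndufv1, the flavin-bearing subunit, had 90.2, 91.3 and 35.9 FPKM in the same order. Both stood lowest in the Gr-1+ CD11b+ cells, with log2 differences of -1.76 and -1.31 from the DC.

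The accessory subunits of complex I were uneven. Ndufc2, a subunit of the membrane arm, had 113 FPKM in the DC, 160 in the macrophages and 25.3 in the Gr-1+ CD11b+ cells, a difference of -2.11 against the DC and -2.61 against the macrophages. It passed the 4-fold rule in both, but against the DC only the 2-fold rule with median-ratio factors (-1.35) and at equal 75th percentiles (-1.36). Its value in the Gr-1+ CD11b+ cells rests on at most 38.4 fragments, and the counting error alone of each difference is at least 0.24. Ndufc1, another membrane subunit, had 175, 248 and 86.9 FPKM, so that the ratio of Ndufc2 to Ndufc1 was 0.644 in the DC, 0.645 in the macrophages and 0.292 in the Gr-1+ CD11b+ cells. Ndufb9, a member of the LYR-motif family in the same arm, had 305, 262 and 235 FPKM, and differed by only -0.38 and -0.16, with the sign turning positive under median-ratio and 75th-percentile scaling. The ratio of Ndufb9 to Ndufb10, which is 1.57 in the DC and 1.48 in the macrophages, was 3.68 in the Gr-1+ CD11b+ cells. Ndufa3 had similarly small differences, with 592, 543 and 410 FPKM. Ndufa12 (185, 142 and 45.5 FPKM), a subunit of the peripheral arm, and Ndufab1 (104, 90.0 and 28.9 FPKM), the mitochondrial acyl carrier protein, were on the low side. Ndufb5, a membrane subunit, had 83.5, 93.7 and 26.6 FPKM, a difference of -1.78 from the macrophages.

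Between DC and macrophages the highest differences among complex I subunits were those of Ndufa1 and Ndufb11, 2 membrane subunits encoded on the X chromosome. Ndufa1 had 881 FPKM in the DC, 502 in the macrophages and 269 in the Gr-1+ CD11b+ cells. Ndufb11 had 154, 94.0 and 60.5 FPKM. Their DC minus macrophage differences of 0.81 and 0.71 missed the 2-fold rule and passed it only after scaling to equal sums (1.2 and 1.10). On the other side stood Ndufc2 and Ndufc1 (both -0.50) and Ndufb8 (416, 512 and 172 FPKM, -0.30). Cox7b of complex IV, the remaining member on the X chromosome, had 109, 128 and 54.6 FPKM and did not share the DC-high pattern.

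Ndufa4 was named as a complex I gene and is now known as a component of complex IV. It had 635 FPKM in the DC, 426 in the macrophages and 136 in the Gr-1+ CD11b+ cells. Its difference in the Gr-1+ CD11b+ cells was -2.21 from the DC, past the 4-fold rule, and -1.64 from the macrophages. With median-ratio factors (-1.44) and at equal 75th percentiles (-1.45) the difference from the DC passed only the 2-fold rule. The ratio of Ndufa4 to Cox4i1, a complex IV subunit, was 0.868 in the DC, 0.481 in the macrophages and 0.313 in the Gr-1+ CD11b+ cells. Its isoform Ndufa4l2, a gene known to be induced by hypoxia, was at or near 0 in all 3 libraries.

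The 7 Ndufaf assembly factors were low genes, from 0.846 to 35.3 FPKM over the 3 libraries, with Ndufaf7 the highest and Ndufaf2 the lowest in the Gr-1+ CD11b+ cells. Ndufaf7, a mitochondrial methyltransferase, had 13.8 FPKM in the DC, 13.6 in the macrophages and 35.3 in the Gr-1+ CD11b+ cells. It was the only member to pass the 2-fold rule as higher in the Gr-1+ CD11b+ cells, by 1.29 against the DC and 1.31 against the macrophages, except that under equal sums its difference from the DC was 0.94. Ndufaf2, a paralog of Ndufa12 that precedes it during assembly, had 10.4, 11.3 and 0.846 FPKM and passed the 4-fold rule in both comparisons, though with median-ratio factors and at equal 75th percentiles its DC value fell short of the 10 FPKM floor. The last value corresponds to at most 1.27 fragments at the length of the RefSeq-linked coding transcript, 678 bases. At the longest annotated transcript, 2404 bases, it would correspond to more. Of the gene's exonic bases, 65.6% overlap the opposite-strand gene B230220B15Rik, whose reads cannot be told apart without strand. Ndufaf1 (12.6, 8.12 and 2.87 FPKM) and Ndufaf6 (10.8, 5.71 and 3.18) were below the level of the receptor genes in the Gr-1+ CD11b+ cells, as was Ndufaf2.

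Complex II, which also belongs to the citric acid cycle, differed in the proportions of its subunits. Sdha, the flavoprotein, had 142 FPKM in the DC, 121 in the macrophages and 73.8 in the Gr-1+ CD11b+ cells. Sdhb, the iron-sulphur subunit, had 216, 300 and 129 FPKM. The membrane anchors Sdhc and Sdhd had 54.5, 76.7 and 29.8 FPKM and 135, 237 and 142 FPKM. Sdha was highest in the DC, whereas the other 3 subunits were highest in the macrophages. The ratio of Sdhd to Sdha was 0.949 in the DC, 1.95 in the macrophages and 1.93 in the Gr-1+ CD11b+ cells, and that of Sdhb to Sdha was 1.52, 2.47 and 1.75. Sdhd in the Gr-1+ CD11b+ cells differed from the DC by 0.08, less than its counting error of at least 0.083, and by 0.85 with median-ratio factors. None of the 4 passed the 2-fold rule between Gr-1+ CD11b+ cells and DC, and Sdhb (-1.2) and Sdhc (-1.33) passed it against the macrophages. Both lost that call under median-ratio factors, at -0.63 and -0.77.

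All 8 complex III members were detected in every library. Uqcr11 (541 FPKM in the DC, 531 in the macrophages, 292 in the Gr-1+ CD11b+ cells) was the highest on average, and Uqcrc2, a core protein, the lowest at 75.1, 63.7 and 34.5 FPKM. Uqcrb, which takes part in ubiquinone binding, had 458, 545 and 143 FPKM, and Uqcrfs1, the Rieske iron-sulphur protein, had 140, 148 and 43.8 FPKM. These 2 had the lowest differences in the complex, -1.92 and -1.73 from the macrophages and -1.67 and -1.66 from the DC. Uqcr10 was the nearest, with 364, 398 and 275 FPKM. Uqcrb and Uqcrq, which had almost equal levels in the DC (a ratio of 0.988), stood at 1.19 in the macrophages and 0.539 in the Gr-1+ CD11b+ cells. The DC and the macrophages differed by no more than 0.25 in any member. Cyc1, the cytochrome c1 subunit, lies outside the symbol rule and had 157, 170 and 103 FPKM.

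Complex IV had the smallest median difference from the DC as deposited (-0.72). This median turned to 0.059 with median-ratio factors and to 0.049 at equal 75th percentiles, with 10 of the 16 members then higher in the Gr-1+ CD11b+ cells. Of these 10, Cox6b2 (4.74 FPKM), Cox7a1 (5.19), Cox7b2 (6.0) and Cox8c (3.01) were below the receptor-gene level there, 9.67 FPKM, and are not read as expression. Cox4i1 and Cox6a1, at -0.75 and -0.76 as deposited, lay close to the median-ratio shift of 0.78. No direction is given for the complex. As deposited 2 of 16 members (12.5%, beside 18.6% of all genes) were past the 2-fold rule as lower than the DC. Against the macrophages 8 of 16 were lower, beside 15.1% of all genes and 2364 of the 5639 genes with a mean of at least 10 FPKM. Under those scalings 0 of the 16 passed in either comparison. Cox8a, a small membrane subunit, had 629 FPKM in the DC, 910 in the macrophages and 628 in the Gr-1+ CD11b+ cells. Cox4i1 had 732, 887 and 436 FPKM, so that the ratio of Cox8a to Cox4i1 was 0.860, 1.03 and 1.44. The difference of Cox8a between Gr-1+ CD11b+ cells and DC was 0.00 as deposited (counting error at least 0.059) and 0.78 with median-ratio factors. Cox7c (221, 251 and 84.0 FPKM) was the furthest below among subunits with at least 10 FPKM in any library, at -1.38 against the DC and -1.57 against the macrophages. Cox5a (335, 454 and 170 FPKM) differed by -1.41 from the macrophages, and Cox5b, which binds zinc, by -0.72 (465, 475 and 288 FPKM). In the DC 12 of the 16 tested members were below the macrophages, by a median of -0.25, a direction that turned to 0.14 under equal sums.

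Most isoform families of complex IV were represented almost wholly by their ubiquitous form. Cox4i1 made up 99.9% or more of Cox4i FPKM, and Cox6b1 98.6% to 99.4% of Cox6b FPKM. Cox8a made up at least 99.5% of Cox8 FPKM. Cox6a1 made up 98.8% of Cox6a FPKM in the DC and 99.8% in both others. The remaining part, the striated muscle isoform Cox6a2, had 7.93 FPKM in the DC, 0.983 in the macrophages and 0.886 in the Gr-1+ CD11b+ cells, and only the DC value lay above the level of the receptor genes. Striated muscle markers (7 genes) summed to 10.2, 9.80 and 26.2 FPKM in the DC, macrophages and Gr-1+ CD11b+ cells, with Mb and Tnnc1 at 0 in the DC and the macrophages. Markers of plasmacytoid DC (7 genes, a list added after the values were seen) summed to 303, 219 and 80.6 FPKM, and Siglech had 14.7, 3.87 and 4.87 FPKM. The Cox7a family was mixed only because Cox7a2l, which is not a subunit, was counted in it. Cox7a2 made up 62.9%, 62.8% and 72.0%, Cox7a2l 34.5%, 33.3% and 25.2%, and the muscle isoform Cox7a1 2.60%, 3.92% and 2.76%. Between the subunit isoforms Cox7a2 was far the higher, with 193, 199 and 135 FPKM beside 7.97, 12.5 and 5.19 for Cox7a1. The last value is below the level of the receptor genes. Cox7a2l is known as a factor for supercomplexes of complexes III and IV, and its activity in this strain was not tested. Cox7a2l had 106, 106 and 47.3 FPKM. Cox7b2 (0, 3.10 and 6.0 FPKM) and Cox8c (0.842, 0 and 3.01 FPKM), known from testis, were below the level of the receptor genes wherever they had a value in the macrophages or the Gr-1+ CD11b+ cells.

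ATP synthase had median differences close to those of complex I, with 11 of 17 members past the 2-fold rule as lower than the DC and 13 of 17 as lower than the macrophages. Over all genes these shares were 18.6% and 15.1%, and of 5639 genes with a mean of at least 10 FPKM 2560 and 2364 were lower. With median-ratio factors 2 and 1 of the 17 passed, beside 8.41% and 7.32% of all genes. The 5 subunits of the catalytic F1 head had medians of -1.22 and -1.23. Atp5b, the catalytic beta subunit, had 777 FPKM in the DC, 756 in the macrophages and 330 in the Gr-1+ CD11b+ cells, and Atp5a1, the alpha subunit, had 314, 299.7 and 122 FPKM. The peripheral stalk (4 genes) had medians of -1.14 and -1.16. In the membrane part, Atp5l (subunit g) had 467, 641 and 389 FPKM, so that the ratio of Atp5l to Atp5b was 0.601, 0.849 and 1.18. The difference of Atp5l from the DC was -0.26 as deposited and 0.52 with median-ratio factors. Atp5j2 (subunit f) had 331, 377 and 192 FPKM. Atp5sl, which despite its symbol is a complex I assembly protein, had 15.9, 8.71 and 1.89 FPKM and passed the 4-fold rule against the DC (-2.55), though only the 2-fold rule with median-ratio factors (-1.94). Its last value is below the level of the receptor genes.

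The c ring that turns within ATP synthase is built from a protein encoded by 3 genes whose mature products are identical. Atp5g1 had 269 FPKM in the DC, 293 in the macrophages and 114 in the Gr-1+ CD11b+ cells. Atp5g2 had 294, 254 and 75.6 FPKM. Atp5g3 had 400.3, 392 and 143 FPKM. Atp5g3 was the highest of the 3 in every library, at 41.5%, 41.7% and 42.9% of the family. Atp5g1 made up 28.0%, 31.2% and 34.4% and Atp5g2 30.5%, 27.0% and 22.7%, so that their order in the DC was the reverse of that in the other 2 populations. The 3 together had medians of -1.48 and -1.45, and all 3 passed the 2-fold rule in both comparisons. With median-ratio factors only Atp5g2 still passed, at -1.17 against the DC and -1.16 against the macrophages, while Atp5g1 was at -0.45 and -0.77 and Atp5g3 at -0.71 and -0.87. Equal 75th percentiles gave the same calls.

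**Figure D4:**
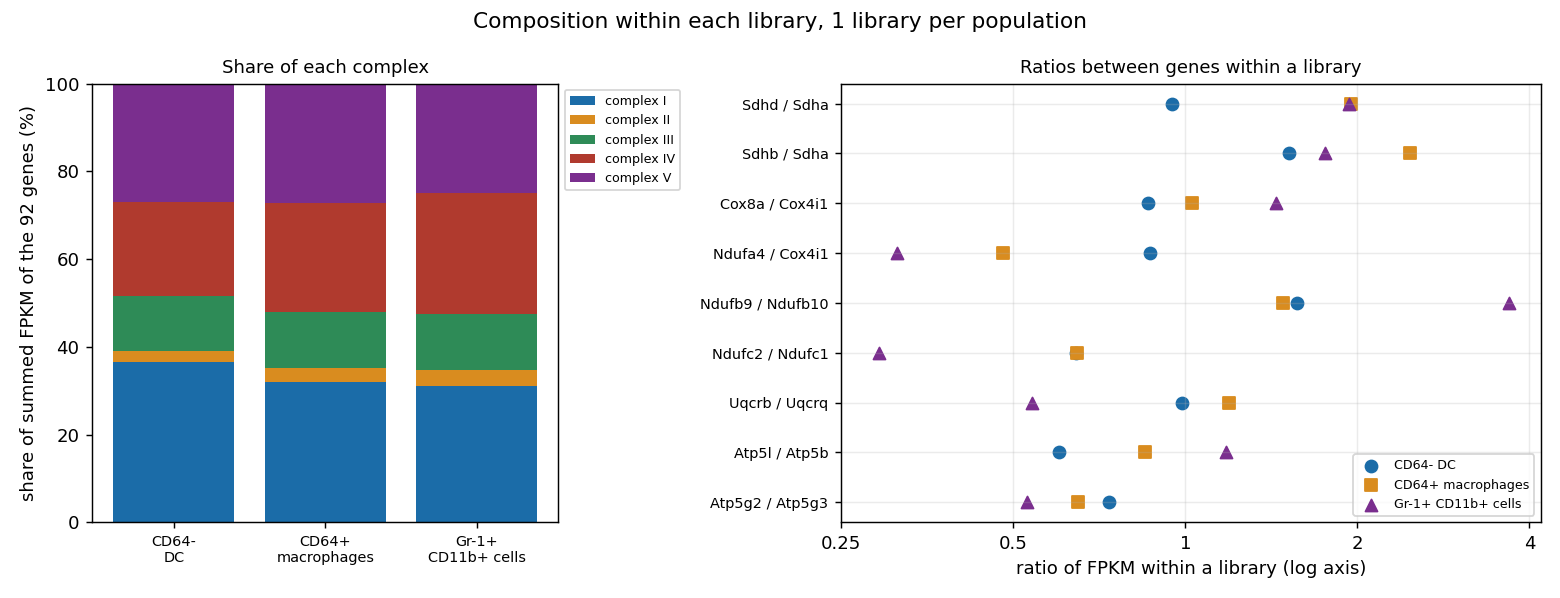
Left, share of each complex in the summed FPKM of the 92 members in each library (%); right, ratios of FPKM between pairs of genes within a library (log axis), which no scaling of a library changes. Complex I takes 36.6% in the DC and 31.2% in the Gr-1+ CD11b+ cells, and Sdhd / Sdha lies near 1 in the DC and near 2 in both others.

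Genes that serve the chain without belonging to it were taken as lists, and their counts of lower calls are read beside the shares over all genes, 18.6% against the DC and 15.1% against the macrophages, or 45.4% and 41.9% among genes with a mean of at least 10 FPKM. Of 37 tested assembly factors outside the symbol rule, 15 were past the 2-fold rule as lower in the Gr-1+ CD11b+ cells than in the DC, 10 as lower than in the macrophages and none as higher in either, with medians of -1.09 and -0.92. These shares, 40.5% and 27.0%, lay above those of all genes and below those of genes with a mean of at least 10 FPKM. Cox17, the copper chaperone of complex IV, had 347 FPKM in the DC, 300 in the macrophages and 450 in the Gr-1+ CD11b+ cells and was the highest of the list. Its ratio to Cox4i1 was 0.475, 0.338 and 1.03. Cox14, another complex IV assembly protein, had 128, 170 and 82.9 FPKM. Sdhaf1, which helps insert the iron-sulphur clusters of Sdhb, had 51.5, 21.3 and 4.19 FPKM, and Sco2, a copper carrier for complex IV, 30.8, 21.5 and 3.39. Both were past the 4-fold rule as lower in the Gr-1+ CD11b+ cells in both comparisons, with values there below the level of the receptor genes. With median-ratio factors both passed only the 2-fold rule against the macrophages, at -1.60 and -1.88.

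Of 19 electron carriers and other electron donors, 8 were past the 2-fold rule as lower and 1 as higher in the Gr-1+ CD11b+ cells than in the DC, and 4 as lower than in the macrophages. The 4 are 21.1% of the list, beside 15.1% of all genes, and the 8 are 42.1%, beside 45.4% of genes with a mean of at least 10 FPKM. Etfb, a subunit of the electron transfer flavoprotein, had 141 FPKM in the DC, 189 in the macrophages and 62.9 in the Gr-1+ CD11b+ cells. Sqrdl, the sulphide quinone oxidoreductase that feeds electrons from hydrogen sulphide to ubiquinone, ran against the list with 19, 68.7 and 138 FPKM. Adck3, which acts in ubiquinone synthesis, had 86.8, 8.04 and 4.56 FPKM and was the gene with the largest difference. Among 9 tested genes of ADP/ATP and phosphate exchange, uncoupling and ATP synthase inhibition, 6 (66.7%) were past the 2-fold rule as lower than in the macrophages and 2 (22.2%, beside 18.6% of all genes) as lower than in the DC. The median against the DC was -0.62 as deposited and turned to 0.16 with median-ratio factors. Ucp2, an inner-membrane carrier, had 593, 1129 and 636 FPKM, the ADP/ATP carrier Slc25a5 676, 1028 and 440 FPKM and its paralog Slc25a4 123, 107 and 23.0 FPKM. Vdac2, an outer-membrane channel, had 118, 151 and 47.9 FPKM.

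The list of mitochondrial import and cristae genes (19) had medians of -1.48 against the DC and -1.19 against the macrophages, with 15 and 12 past the 2-fold rule as lower, and 5 and 3 with median-ratio factors. Timm23, the channel of the inner membrane, had 178 FPKM in the DC, 172 in the macrophages and 64.5 in the Gr-1+ CD11b+ cells. Tomm22, a receptor of the outer membrane, had 123, 116 and 78.9 FPKM. Timm50 (70.1, 45.3 and 17.2 FPKM) and the chaperonin Hspe1 (115, 78.9 and 27.1 FPKM) had the widest differences. All 19 were higher in the DC than in the macrophages as deposited, by a median of 0.24, which moved to 0.05 under median ratios. For reference, 20 cytosolic ribosomal protein genes had medians of -2.42 and -1.71, and 15 housekeeping genes -0.94 and -0.75.

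Among 16 tested regulators of mitochondrial genes, 5 were past the 2-fold rule as higher in the DC than in the macrophages (background 5.59%). A further 1 was lower (background 5.69%). The 6 included Tfam, the packaging factor of mitochondrial DNA, with 23.0 FPKM in the DC, 4.32 in the macrophages and 4.89 in the Gr-1+ CD11b+ cells. Myc had 75.3, 23.3 and 10.5 FPKM, and Pprc1, a coactivator of the PGC-1 family, 13.2, 4.78 and 0.783 FPKM. In the Gr-1+ CD11b+ cells the values of Tfam, Pprc1 and Adck3 were below the level of the receptor genes. Hif1a, the hypoxia-inducible factor, had 30.1, 93.4 and 63.3 FPKM. Gabpb1, the partner of GABPA, had 31.0, 37.9 and 43.1 FPKM. Against the DC 6 of the 16 were past the 2-fold rule as lower in the Gr-1+ CD11b+ cells and 1 as higher (background 18.6% and 6.03%). Of the genes with a mean of at least 10 FPKM, 2560 of 5639 were lower than in the DC. Against the macrophages 1 of the 16 was lower (6.25%, beside 15.1% of all genes). Of 10 hypoxia targets 3 were higher and 1 lower in the Gr-1+ CD11b+ cells than in the DC (background 6.03% higher and 18.6% lower), with a median of 0.40, which moved to 0.070 under equal sums and to 1.10 with median-ratio factors. Against the macrophages 1 was higher and 2 lower (background 4.72% and 15.1%), with a median of -0.075 that turned to 0.46 with median-ratio factors. The glucose transporter Slc2a1 had 47.6, 122 and 187 FPKM, Bnip3, a mitophagy receptor, 14.6, 46.8 and 71.6 FPKM, and Ldha, lactate dehydrogenase A, 715, 870 and 866 FPKM.

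Counting sets a limit on single genes rather than on the module. Fragment numbers were estimated at the length of the longest coding transcript linked to RefSeq. For members with at least 10 FPKM in any library their median was 1444 in the DC, 1067 in the macrophages and 176 in the Gr-1+ CD11b+ cells. Where no longer transcript is annotated, the numbers are upper bounds and the counting errors lower bounds. Other members have a longer one, such as Atp5l (544 and 6310 bases), and for them neither is a bound. The median counting error of a log2 difference was 0.058 between DC and macrophages. In the Gr-1+ CD11b+ cells it was 0.115 from the DC and 0.116 from the macrophages. These cover counting error only, and the variation between mice or sorts is not measured. Of the 92 members, 22 have a near-identical copy elsewhere in the annotation (at least 95% identity over at least 200 bases), and their medians of -1.23 and -1.20 stood beside -1.11 and -1.05 in the 67 tested members without one. Ndufs5 (34.4, 32.8 and 23.5 FPKM) is the plainest case, since its copy BC002163 had 114, 95.7 and 53.2 FPKM, so the level of either is uncertain.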

How the data were processed

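Full-length cDNA was made from total RNA with a SMART-Seq kit and sequenced after a Nextera library preparation, per the labels' protocols. The submitters' processing notes name Cufflinks 2.2.1, TopHat2 2.0.13 with Bowtie2 2.2.3, SAMtools 0.1.19 and, as build, mm10; the annotation and the strand setting are not given in the sources used here. The authors deposited 1 table of FPKM values per population, already normalized for transcript length and library size, and these were used as deposited.

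Members were chosen by symbol, and the members and gene lists were chosen with earlier results of these data known. Genes with at least 1 FPKM in any library (17329 of 24346) were compared as log2(FPKM + 1), with a floor of 10 FPKM in the higher library for the 4-fold and 2-fold rules. The named members are, per complex and comparison, the 3 highest and 3 lowest differences among members of at least 10 FPKM, the 3 highest levels, all complex II and isoform-family genes and all past the 4-fold rule; other names (Ndufs8, Ndufv1, Ndufa12, Ndufab1, Ndufb10, Ndufaf1, Ndufs5, Atp5a1, Tfam) and the gene pairs given as ratios were chosen after their values were seen, as were the motifs and the promoters printed. The values of 1 member are not reported singly here. Each list gave its 2 highest genes and 2 largest differences.

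The worth of 1 fragment was read from steps in low values, with the step chosen to fit those values best. Of them 66.6% to 74.6% lay within 0.2 of a whole multiple. A step set beforehand would give 40% by chance, which is not the chance level for a fitted step. Fragment numbers use the length of the longest RefSeq-linked coding transcript. They are upper bounds only for members with no longer annotated transcript. Gene positions, overlaps and copies came from GENCODE M21 (GRCm38), with BLAST+ 2.17.0 for copies. Scripts ran in Python 3.11.15 with NumPy 2.4.6 and pandas 2.3.3, and the size rule was tested on simulated data. Alternatives were other pseudocounts, floors, scalings, subtraction of the receptor-gene median, and leaving out short transcripts or non-subunits. Other marker lists summed as follows in the DC, macrophages and Gr-1+ CD11b+ cells: T and NK cell 196, 33.7 and 27.1 FPKM, smooth muscle and fibroblast 132, 56.8 and 146, and adipocyte 2.4, 1.2 and 5.7.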

Additional observations from a re-analysis of the deposited data

How the results depend on the processing

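With 1 library per population no replicate could be left out, and no paired analysis was possible because the labels give each population a single library. Scaling moved the results most. Equal sums gave member medians of 0.41 (DC minus macrophages) and -1.51 (Gr-1+ CD11b+ cells minus DC); by complex I to V these were 0.46, -0.092, 0.38, 0.14 and 0.41, and -1.65, -1.16, -1.36, -1.09 and -1.60, with 5 members past the 2-fold rule between DC and macrophages (4 higher, 1 lower) and 12 past the 4-fold rule in Gr-1+ CD11b+ cells minus DC. Median ratios gave -0.18 between DC and macrophages (complexes I to V -0.10, -0.67, -0.21, -0.45 and -0.18), -0.38 for Gr-1+ CD11b+ cells minus DC (-0.51, -0.024, -0.22, 0.059 and -0.45) and -0.55 for Gr-1+ CD11b+ cells minus macrophages (-0.58, -0.39, -0.29, -0.41 and -0.68). Equal 75th percentiles gave -0.15 (-0.071, -0.64, -0.18, -0.42 and -0.15), -0.39 (-0.52, -0.034, -0.23, 0.049 and -0.46) and -0.54 (-0.56, -0.37, -0.27, -0.39 and -0.66) in the same order. Under both, 1 member (Ndufaf7, higher) passed the 4-fold rule against the DC and 8 the 2-fold rule, and 11 (median ratios) or 10 (75th percentiles) the 2-fold rule against the macrophages.

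A pseudocount of 10 gave medians of -0.95 (complex I -1.09) against the DC and -0.97 (complex I -0.97, complex IV -0.72) against the macrophages, with 1 member past the 4-fold rule in each and 0 past the 2-fold rule between DC and macrophages. Without a floor 2 members passed the 4-fold and 4 the 2-fold rule between DC and macrophages; with a floor of 30 FPKM 0 passed the 2-fold rule there, and 2 and 1 the 4-fold rule against DC and macrophages. Subtracting the receptor-gene median gave 7 past the 4-fold rule against the DC, and leaving out non-subunits gave 2 and 1. These moves follow from the construction of each alternative. Over the 89 tested members and the 3 comparisons, 105 differences passed the 2-fold rule as deposited. Of these, 85 no longer passed with median ratios, 86 at equal 75th percentiles, 21 with a pseudocount of 10, 8 with a floor of 30 FPKM and 2 under equal sums, and 0 were lost with a pseudocount of 0.1, without a floor or after subtracting the receptor-gene median. Equal sums added 25, no floor 11, the subtraction 5 and a pseudocount of 0.1 3. Under these 8 alternatives 0 of the 105 changed sign, but this was fixed in advance and nothing is concluded from it. Each of the 105 differed by at least 1, and the largest shift from a scaling was 0.78. Some values short of the rule did change sign (Ndufb9, Cox8a and Atp5l). In the Gr-1+ CD11b+ cells, values below 9.67 FPKM, the level of the receptor genes there, are not read as expression. What sets that level was not tested.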
